A study of Arabidopsis thaliana with 6 samples.

Results

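The 5 complex I genes nad1, nad2, nad4, nad4L and nad9 of the mitochondrial genome were followed in the phloem of Arabidopsis thaliana, out of 13350 genes that the annotation of the Affymetrix ATH1 array names alone for at least 1 probe set. They were read by 11 probe sets, out of 22746 that were not controls. A probe set is the group of short probes on the array that measures 1 transcript. The 11 were the probe sets that the platform's annotation pairs with 1 of these genes and with no other. The gene nad1 had 7 of them (257321_at, 257322_at, 257323_at, 257324_at, 257325_at, 257327_at and 257329_at), and nad2 (257331_at), nad4 (244929_at), nad4L (244902_at) and nad9 (244943_at) had 1 each. A further 2 probe sets named nad1 together with a nuclear gene of chromosome 2 and were left out. The annotation gives no position within a gene, so which part of nad1 each of its 7 probe sets reads is not known here, and that they read nad1 and no other reading frame rests on the annotation alone. Chromosome 2 of the nucleus carries a long copy of the mitochondrial genome, and hybridization cannot tell near-identical copies apart.

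Complex I, the NADH dehydrogenase of the inner mitochondrial membrane, passes electrons from NADH to ubiquinone and pumps protons. Most of its subunits are encoded in the nucleus and a small set in the mitochondrial genome. The products of nad1, nad2, nad4 and nad4L lie in the membrane arm, and that of nad9 in the matrix arm. The coding parts of nad1 and nad2 lie apart in the plant mitochondrial genome, and their precursor RNAs are joined by trans-splicing. The gene nad4 has introns that are spliced in cis, while nad4L and nad9 have none in Arabidopsis. Plant mitochondrial messengers do not carry the stable poly-A tails of nuclear ones, and tails added to them are known as marks for decay, which bears on any sample prepared on oligo-dT beads.

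Both groups came from plants grown with 8 h of light at 22 °C and 16 h of darkness at 16 °C per day until flowering, with no treatment and no genotype or accession named. The exudate group (n = 3 arrays) held poly-A RNA of phloem exudate, the fluid collected from cut phloem with EDTA, amplified by 2 rounds of linear amplification. The LMPC phloem group (n = 3 arrays) held poly-A RNA of phloem tissue cut out by laser microdissection and pressure catapulting (LMPC), amplified with a SMART kit that includes 10 PCR cycles. The kit changed together with the kind of sample, so kit and sample cannot be told apart in any comparison below. In samples of this kind, fewer cells of a type and less RNA per cell cannot be told apart either. Whether the arrays of a group stand for separate plants is not said in the labels, and the p-values cover the spread between these arrays and no more. The 7 phloem marker genes listed for checking the tissue, SUC2 among them, are named alone by none of the probe sets and were not analysed here.

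The trimmed mean of the MAS5 signals (2% of probe sets left out at either end) lay between 17.4 and 27.3 in exudate and between 22.3 and 28.0 in LMPC phloem, and exudate array 3 was the brightest of its group. Differences below are those of log2(signal + 16), exudate minus LMPC phloem, a scale that understates the change of signals near or under 16. Of 15356 probe sets tested, limma called 1303 higher and 2552 lower in exudate at an adjusted p under 0.05, so 33.8% of the calls were higher. That share was 51.1% after quantile normalization, 47.8% after scaling to the trimmed mean, 57.2% after median centring and 96.9% after centring on the hybridization spike-ins. Over all tested probe sets the median difference was -0.27 as deposited. It was -0.04 after quantile normalization, -0.12 after scaling to the trimmed mean, -0.21 after centring on reference genes, -0.00 after median centring and 1.03 after centring on the spike-ins. The differences of single nad probe sets below are as deposited unless another setting is named, and this shift is not subtracted. Relative to the deposited median they ran from -1.12 for nad4 to 1.99 for nad1 257325_at.

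The complex I genes of the mitochondrial genome did not move together. The probe sets 257322_at, 257324_at and 257325_at of nad1 and that of nad9 were higher in exudate, and those of nad4 and nad2 were lower. The probe set of nad4L and the other tested probe sets of nad1 did not pass the test. In counts, 4 of the 10 tested probe sets were called higher and 2 lower, against 8.49% called higher and 16.6% called lower among all probe sets tested. The probe sets of nad2, nad1 257323_at and nad1 257325_at passed the filter on dim signals (3 or more of the 6 arrays above their 40th percentile) through 1 group alone, so a difference was built into their being tested. Of the 7 that exceeded the 40th percentile on an array of each group, 3 were called higher and 1 lower, against 7.08% higher and 15.2% lower among the 14328 probe sets of that kind. The median difference of the 7 was 0.59, against -0.27 for those 14328. The 7 are not free of the filter either. For nad9, nad1 257324_at and nad4L, all 3 exudate arrays but only 1 LMPC phloem array exceeded the percentile. Their exudate arrays alone thus met the filter, which favours a difference towards exudate.

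**Figure D1:**
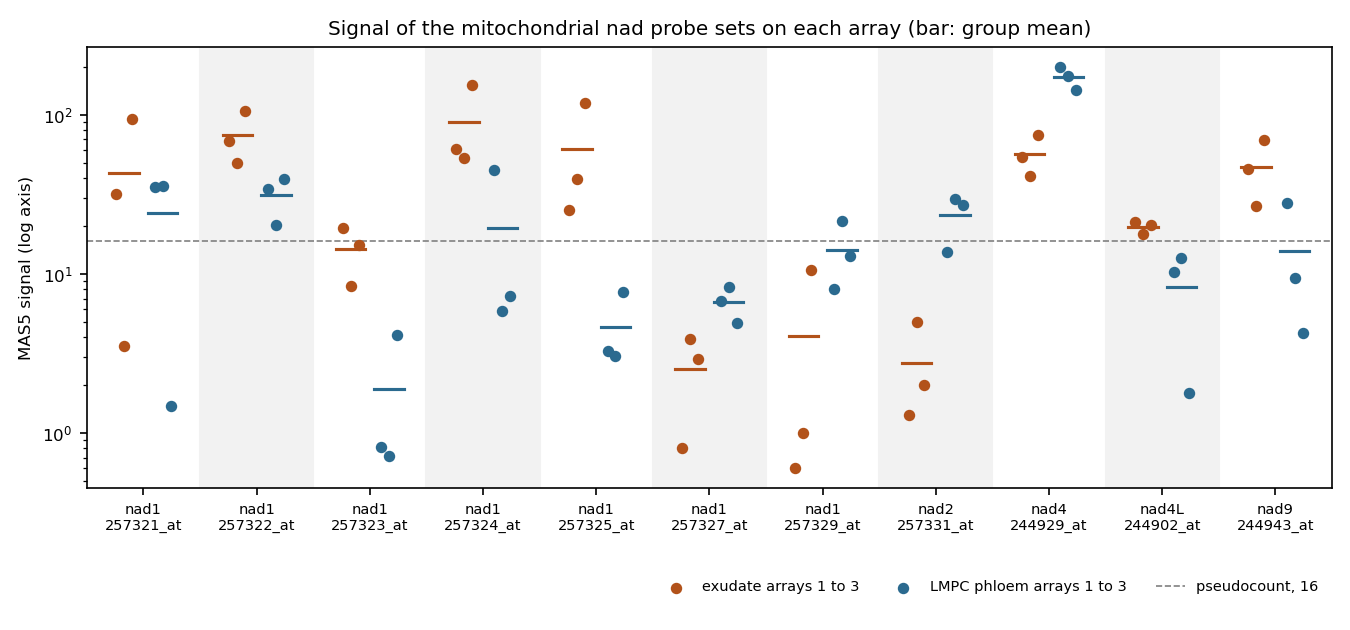
MAS5 signal (log axis) of the 11 nad probe sets on each exudate array (left in each pair) and each LMPC phloem array (right), with bars at the group means and a dashed line at the pseudocount of 16. The signals of nad4 lie between 41.0 and 74.5 in exudate, below all 3 LMPC phloem arrays, while the exudate signals of nad1 257324_at and 257325_at lie above all 3 LMPC phloem arrays.

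The gene nad1 encodes a membrane-arm subunit next to the site where ubiquinone binds. Its probe set 257325_at had signals of 25.3, 39.4 and 119 on exudate arrays 1, 2 and 3, against 3.26, 3.04 and 7.70 on LMPC phloem arrays 1, 2 and 3. All exudate arrays were above all LMPC phloem arrays, and exudate array 3 stood highest. The difference was 1.72 (SE 0.38, limma, adjusted p = 0.0028). The probe set 257324_at had 61.3, 53.6 and 154.9 in exudate, against 44.8, 5.88 and 7.24 in LMPC phloem. The groups did not overlap, but LMPC phloem array 1 came close to the exudate values. The difference was 1.63 (SE 0.41, limma, adjusted p = 0.00713). On exudate arrays this probe set lay between the 91.5th and the 94.8th percentile of all signals of the array, and on LMPC phloem arrays between the 30.0th and the 81.9th.

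The probe set 257322_at of nad1 had signals of 68.2, 49.6 and 105 in exudate, against 34.0, 20.4 and 39.5 in LMPC phloem, again with no overlap. Its difference of 0.91 (SE 0.33) lay just under the threshold (limma, adjusted p = 0.0491). The call was lost without exudate array 1 (difference 0.94, limma adjusted p = 0.106) or 3 (0.67, 0.166) and without LMPC phloem array 1 (0.96, 0.0861), 2 (0.73, 0.173) or 3 (1.04, 0.0613). The probe sets 257324_at and 257325_at kept their calls whichever of the 6 arrays was left out. For 257324_at the margin was small without LMPC phloem array 2 (limma, adjusted p = 0.0463) or 3 (0.0481). For 257325_at the filter, set on all 6 arrays, had been passed through exudate arrays alone, so its difference was in part built into its being tested.

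The remaining probe sets of nad1 were dim or scattered. The probe set 257323_at had 19.4, 8.40 and 15.1 in exudate, against 0.82, 0.72 and 4.14 in LMPC phloem, a difference of 0.75 that did not pass as deposited (limma, adjusted p = 0.0807). It was called under 6 of 16 alternatives, among them quantile normalization (0.93, limma adjusted p = 0.0237), scaling to the trimmed mean (0.83, 0.0444) and median centring (1.01, 0.0203). The probe set 257321_at ranged from 3.50 to 93.8 within exudate and from 1.47 to 35.6 within LMPC phloem, and its difference of 0.39 did not pass (limma, adjusted p = 0.607). Its sign turned without exudate array 3 (-0.23) or without LMPC phloem array 3 (-0.13). The probe set 257329_at had 0.60, 1.00 and 10.6 in exudate, against 8.01, 21.6 and 13.005 in LMPC phloem, a difference of -0.60 (limma, adjusted p = 0.184). The probe set 257327_at stayed between 0.80 and 3.90 in exudate and between 4.88 and 8.23 in LMPC phloem, failed the filter on dim probe sets and was not tested. The probe sets annotated to nad1 thus differed in sign, with 5 of the 6 tested ones above 0.

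The gene nad2 encodes one of the antiporter-like subunits of the membrane arm. Its probe set had signals of 1.3, 5.0 and 2.0 on the exudate arrays, against 13.7, 29.6 and 27.1 on the LMPC phloem arrays. All exudate arrays were below all LMPC phloem arrays, and none of them reached the 40th percentile of its array. The difference was -1.05 (SE 0.31, limma, adjusted p = 0.0183). The call was lost without exudate array 1 (-0.996, limma adjusted p = 0.0689), LMPC phloem array 2 (-0.94, 0.073) or LMPC phloem array 3 (-0.98, 0.0619), and after median centring (-0.79, 0.0752).

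The gene nad4 encodes a further antiporter-like subunit. Its probe set gave 54.3, 41.0 and 74.5 on the exudate arrays, against 199.5, 174 and 143 on the LMPC phloem arrays. The mean was 56.6 ± 16.9 in exudate and 172 ± 28.3 in LMPC phloem (SD, n = 3 each), which is 3.04-fold lower in exudate, with no overlap. It lay within a narrow band of ranks in each group, from the 88.0th to the 90.6th percentile on exudate arrays and from the 96.7th to the 96.8th on LMPC phloem arrays. The difference was -1.39 (SE 0.31, limma, adjusted p = 0.00322), and the call held whichever array was left out. It was lost with a pseudocount of 1 (-1.62, limma adjusted p = 0.0544) and after centring on the spike-ins (-0.09, 0.852).

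The gene nad4L encodes a small membrane-arm subunit. Its probe set had 21.3, 17.7 and 20.4 in exudate, against 10.3, 12.6 and 1.77 in LMPC phloem. The exudate signals were close to each other and above all LMPC phloem arrays, of which array 3 was lowest. The difference of 0.59 (95% interval -0.06 to 1.24) did not pass as deposited (limma, adjusted p = 0.174). Without LMPC phloem array 3 it was 0.38 (limma, adjusted p = 0.445). It passed after quantile normalization (0.85, limma adjusted p = 0.0394), median centring (0.86, 0.0483) and centring on the spike-ins (1.89, 3.21e-05), but not after scaling to the trimmed mean (0.75, 0.073).

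The gene nad9 encodes the matrix-arm subunit of the set. Its probe set had 45.7, 26.6 and 69.0 in exudate, against 27.9, 9.35 and 4.27 in LMPC phloem, so that LMPC phloem array 1 lay just above exudate array 2. The mean was 47.1 ± 21.2 in exudate and 13.8 ± 12.4 in LMPC phloem (SD, n = 3 each), and the difference was 1.103 (SE 0.36, limma, adjusted p = 0.0296). The call was lost without exudate array 1 (1.09, limma adjusted p = 0.0894) or 3 (0.86, 0.108) and without LMPC phloem array 2 (1.02, 0.0919) or 3 (0.86, 0.133). After quantile normalization it was 1.29 (limma, adjusted p = 0.0041).

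**Figure D2:**
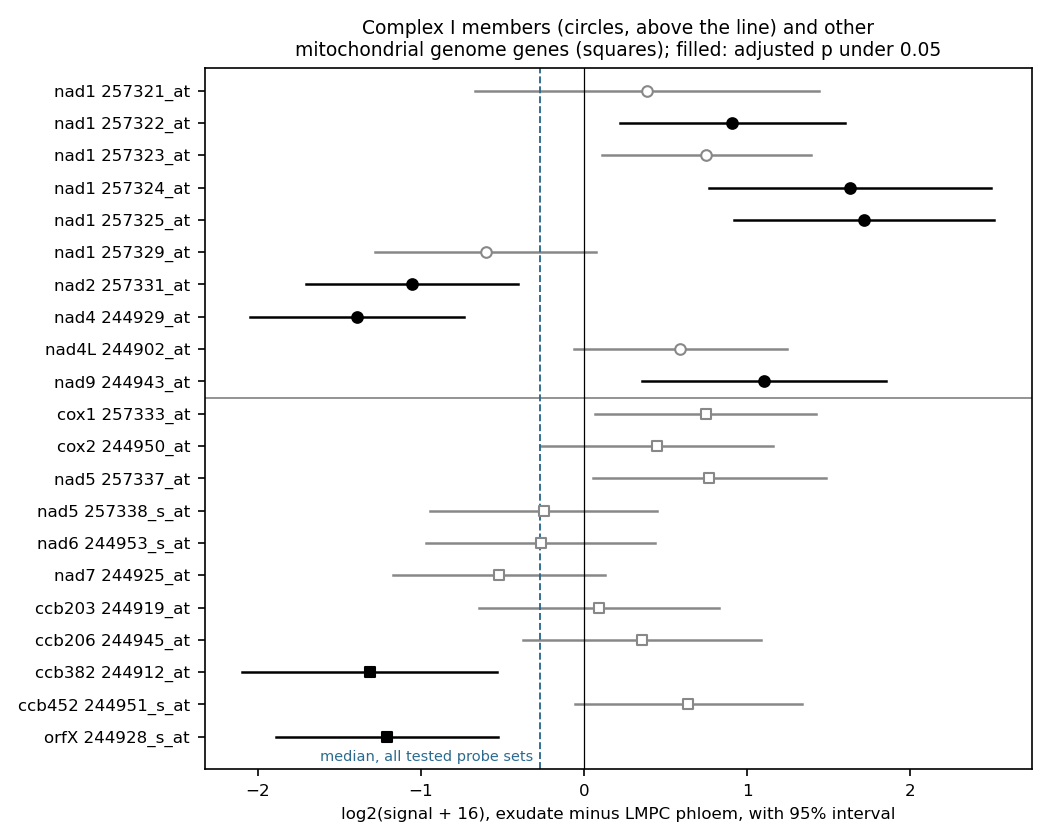
Log2 difference, exudate minus LMPC phloem, with its 95% interval for the 10 tested nad member probe sets (circles, above the line) and 11 probe sets of other mitochondrial genome genes (squares). Filled symbols passed an adjusted p under 0.05, and the dashed line at -0.27 is the median of all tested probe sets. The members run from -1.39 for nad4 to 1.72 for nad1 257325_at.

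Across the 11 probe sets, exudate array 3 was the highest exudate array for 7 and the lowest for 0, and exudate array 2 was the lowest for 7. Among the LMPC phloem arrays no such order showed, since arrays 1, 2 and 3 were highest for 3, 5 and 3 probe sets. All exudate arrays lay above all LMPC phloem arrays for 5 of the 10 tested probe sets and below them for 2, against 12.1% above and 27.7% below among all probe sets tested. Of the 7 that exceeded the 40th percentile in both groups, 3 lay above and 1 below, against 9.54% above and 26.4% below among all such probe sets. Among those above, nad4L and nad1 257324_at met the filter by their exudate arrays alone. The number called ran from 6 as deposited to 8 after quantile normalization. It was 1 with a pseudocount of 64 and 3 without a filter, so it moved more with these choices than with the scaling. Under the values as deposited, quantile normalization, scaling to the trimmed mean, median centring and centring on reference genes alike, 5 of the 10 were called, namely nad1 257322_at, 257324_at and 257325_at and nad9 as higher and nad4 as lower. Of the 5, nad1 257325_at had passed the filter through exudate arrays alone. For nad1 257324_at and nad9, all 3 exudate arrays and only 1 LMPC phloem array exceeded its percentile, so the exudate arrays sufficed there too. The centring on reference genes rested on 4 probe sets, of which 1 was itself called higher and 1 lower as deposited. Among all tested probe sets 8.4% were called higher and 9.53% lower under these scalings alike. After centring on the spike-ins 7 were called higher and 0 lower (limma), and 0 were lower at an unadjusted p under 0.05. Under that scaling 57.8% of all tested probe sets were called higher and 1.87% lower, so the members' counts lie near the background. This centring adds the same amount to every difference, so it leaves the order of the members as it was.

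**Figure D3:**
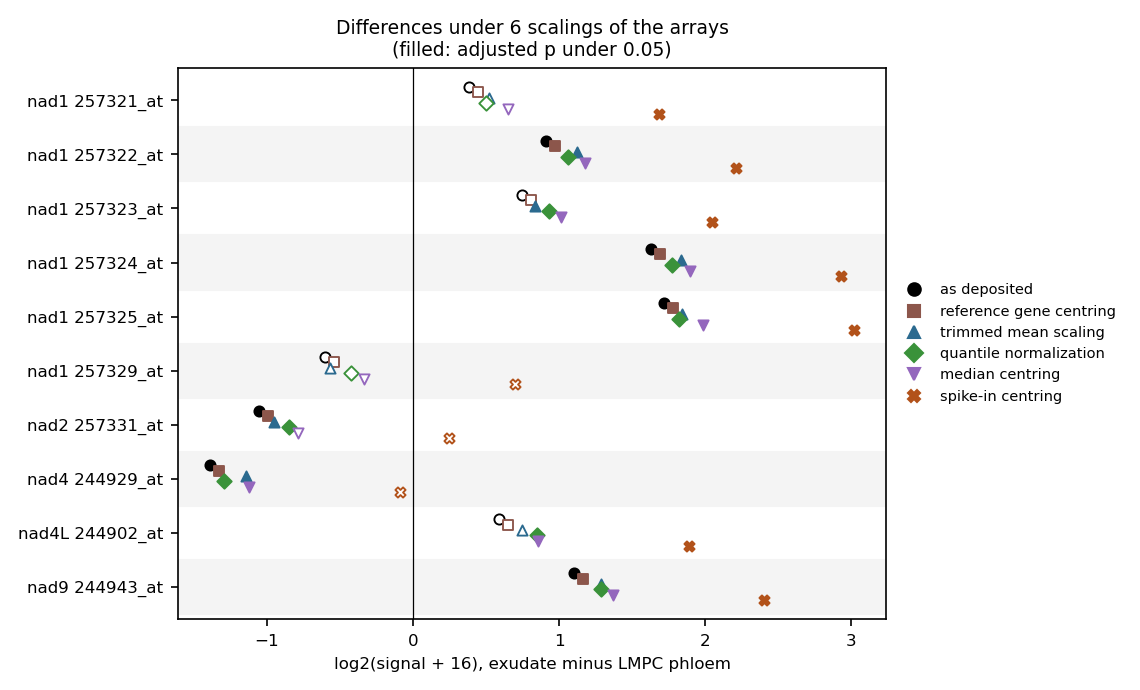
Log2 difference, exudate minus LMPC phloem, of the 10 tested nad probe sets under 6 scalings of the arrays, one symbol per scaling, filled where the adjusted p was under 0.05. Every probe set moves right from the deposited values to the spike-in centring, where nad4 reaches -0.09 and nad2 turns to 0.25.

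The scale of an array cancels when 2 probe sets are compared on the same array, apart from the pseudocount. On exudate arrays 1, 2 and 3, log2(signal + 16) of nad1 257324_at was above that of nad4 by 0.14, 0.29 and 0.92. On the LMPC phloem arrays the same quantity was -1.82, -3.12 and -2.77. Exudate and LMPC phloem thus differed by 3.02 in this quantity (exact permutation, two-sided, p = 0.1, the smallest that 3 against 3 arrays can give). For nad9 the change relative to nad4 was 2.49, for nad4L 1.98 and for nad1 257325_at 3.11, each without overlap between the groups and with the same exact p = 0.1 (0.214 by Benjamini-Hochberg over the 45 pairs of members computed). Between nad2 and nad4 the change was 0.34, and the groups overlapped (exact permutation p = 0.5). The pseudocount moved these values: with 1 in place of 16, nad1 257324_at changed by 4.17 relative to nad4 and with 64 by 1.83. With a pseudocount of 1 the change turned to -1.13 for nad2 and to -0.47 for nad1 257329_at, which was 0.79 with 16. With the pseudocount of 16, 8 of 9 probe sets stood higher relative to nad4 on every exudate array than on any LMPC phloem array. Among all tested probe sets 69.5% did so, so the count is near the background. Because nad4 had the lowest difference of the tested members at this pseudocount (-1.39), every mean change relative to it was bound to be positive. Over all 45 pairs of members, 21 did not overlap between the groups, and within nad1 5 of 15 did not. The share over pairs of all tested probe sets was not computed, so these counts cannot be set against a background.

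**Figure D4:**
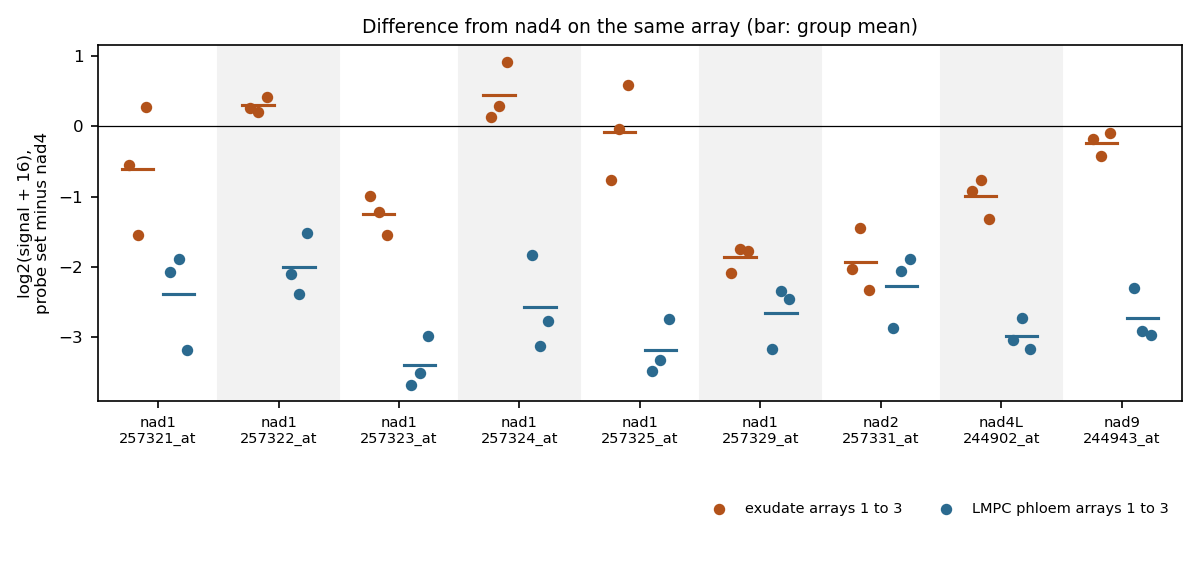
Log2(signal + 16) of 9 nad probe sets minus that of nad4 on the same array, for exudate arrays (left in each pair) and LMPC phloem arrays (right), with bars at the group means. The exudate points lie above the LMPC phloem points for 8 of the 9 probe sets, and those of nad2 overlap.

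Other genes of the mitochondrial genome were set beside the members. Of 11 tested probe sets, 0 were called higher and 2 lower in exudate (limma), and 2 were higher at an unadjusted p under 0.05. Their median difference was 0.09. Among all probe sets tested 8.49% were called higher and 16.6% lower, so the 2 lower calls are near the background. The further complex I genes nad5, nad6 and nad7 had 4 probe sets and no call, with differences from -0.52 for nad7 to 0.77 for nad5 257337_at. The other nad5 probe set, 257338_s_at, was at -0.25 (limma, adjusted p = 0.62). For complex IV, the terminal oxidase of the chain, cox1 had 156 ± 42.7 in exudate and 87.0 ± 28.0 in LMPC phloem without overlap (SD, n = 3 each), and its difference of 0.74 did not pass (limma, adjusted p = 0.0996). The probe sets called lower were ccb382, a cytochrome c maturation gene, with 11.7 ± 10.6 in exudate and 53.9 ± 32.1 in LMPC phloem (-1.31, limma adjusted p = 0.015), and orfX, with 10.8 ± 7.76 in exudate and 44.5 ± 9.84 in LMPC phloem (-1.21, 0.0109). The gene matR, which lies within an intron of nad1 and encodes a maturase, failed the filter on dim signals and was not tested.

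Subunits of complex I encoded in the nucleus were measured by 31 probe sets, all tested. Of these, 4 were higher and 9 lower in exudate, against 8.49% and 16.6% of all probe sets tested. Their median difference was -0.52. By the smallest adjusted p, the higher ones were led by AT5G11770, an iron-sulfur subunit, with 221 ± 75.1 in exudate and 95.1 ± 32.5 in LMPC phloem (1.09, limma adjusted p = 0.0247), and by AT2G33220 (1.04, 0.0276). The lower ones were led by AT1G14450, with 115 ± 62.1 in exudate and 1333 ± 161 in LMPC phloem (-3.48, limma adjusted p = 1.21e-06), and by AT3G03070 (-2.46, 2.01e-05). The plastid genome encodes a related NDH complex, and of 8 tested ndh probe sets 0 were higher and 5 lower (limma; 0 higher and 5 lower at an unadjusted p under 0.05), with a median of -1.23. The lowest were ndhD (-4.18, limma adjusted p = 6.85e-07) and ndhC (-3.20, 2.32e-05). Whether these lists differ from the mitochondrial members beyond what single probe sets show was not tested.

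The profiles most like each member over the 6 arrays were found by the root mean square distance of centred log2 values among 1163 tested probe sets with a gene symbol. For nad1 (257324_at) they were rbcL of the plastid genome, the large subunit of Rubisco (0.26), PMEPCRF (0.32) and LHCB4.1, a chlorophyll-binding antenna protein (0.33). For nad2 they were VHA-A1, a subunit of a proton pump (0.10), TMT3, a sugar transporter of the tonoplast (0.14), and XERICO (0.15). For nad4 they were JAL23 (0.14), CRK (0.14) and PRL (0.16). For nad4L they were APM1, an aminopeptidase (0.10), AR401 (0.13) and NTMC2T6.1 (0.16), and for nad9 they were 2A6 (0.14), CLE44, a phloem peptide gene (0.15), and RCA, Rubisco activase (0.20). Pearson's r of these pairs over the 6 arrays lay between 0.91 and 0.99, and the points share the step between the groups.

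Several other measures moved with the group as well. The ratio of 3' to 5' signal of the GAPDH control, on the log2 scale, lay between 1.102 and 1.304 on exudate arrays and between 2.59 and 5.44 on LMPC phloem arrays (exact permutation test, two-sided p = 0.1), while those of actin (p = 0.2) and ubiquitin (p = 0.7) overlapped by the same exact test. The hybridization spike-ins averaged 9.09 in exudate and 10.4 in LMPC phloem on the log2(signal + 16) scale (exact permutation p = 0.1). Nuclear photosynthesis genes, markers of green leaf cells, were higher in exudate in 3 of 3 probe sets measured out of 5 genes listed, and their summed signal lay between 924 and 1805 in exudate and between 183 and 745 in LMPC phloem, with none at 0. Of these genes, RCA and LHCB4.1 overlapped between the groups. The xylem marker GUT2, measured out of 6 listed, had 27.5 ± 9.99 in exudate and 75.2 ± 8.88 in LMPC phloem (SD, n = 3 each). The guard cell marker FMA, measured out of 4 epidermis and guard cell genes listed, had 8.00 ± 6.15 in exudate and 20.1 ± 9.04 in LMPC phloem. Its groups overlapped and it was not called (limma, adjusted p = 0.198). The part of these measures in the differences of the nad genes was not tested.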

How the data were processed

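The values are intensity values as deposited, 1 linear MAS5 signal per probe set and array, per the submitters' processing notes, which give no version. How arrays were scaled and corrected for background, and which genome build served, is not given in these sources; no detection calls were used. Exudate values carry 1 decimal and LMPC values more, per the deposited table. The extract protocol of the LMPC samples speaks of exudates, against their titles, and groups follow the titles.

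Genes came from the platform annotation, which pairs 13513 probe sets with 1 gene, 503 with several and leaves 8730 unnamed. Mitochondrial genes were matched by symbol. In 5 probe sets such a symbol carried the identifier of a plastid gene (rps4 and others), and these were not counted as mitochondrial. No control probe set was tested. Probe sets entered the test when at least 3 of the 6 arrays had them above the 40th percentile of that array. Limma 3.58.1 (R 4.3.3; lmFit, eBayes) was run on log2(signal + 16) of all 15356 such probe sets with no covariate, with Benjamini-Hochberg adjustment over all of them. The fit was tested on simulated data. Differences within an array were compared by exact two-sided permutation tests (scipy 1.17.1).

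The members and lists were chosen with earlier results of these data known. The older mitochondrial names (ccb382, ccb203, ccb206, ccb452, orfX) were added to the lists after the annotation was seen. Named genes were all members, other mitochondrial genes, the 2 called with the smallest adjusted p in each direction of other lists, and the 3 nearest profiles. NADH dehydrogenase splicing factors, reference genes and markers are given as lists. Alternatives covered scaling, pseudocount, filter, replicate block, intensity trend and single arrays left out. The 3 arrays per group limit the precision.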

Additional observations from a re-analysis of the deposited data

How the results depend on the processing

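Whether the replicate numbers of the titles pair the samples is not said in the labels. Between the groups, deviations from the group means correlated by -0.00, -0.02 and -0.07 for numbers 1, 2 and 3. Such values cannot settle it, since the amplification kit differed between the groups. With the replicate block limma called 3 member probe sets higher and 2 lower, and nad1 257322_at (0.91, adjusted p = 0.0574) was the call lost; it was lost with an intensity trend as well (0.0637). Over all probe sets the counts moved to 1982 higher with quantile normalization, to 1961 higher and 1465 lower with median centring, and to 8882 higher and 287 lower with spike-in centring. Leaving out 1 array gave between 905 and 1214 higher and between 1521 and 2469 lower, the fewest lower calls being without exudate array 1 and, with 1671, LMPC phloem array 1. With the replicate block the counts were 1213 higher and 2205 lower of 15356, and with an intensity trend 1287 and 2675. With a pseudocount of 1 they were 951 and 1981, and with 64 they were 949 and 1931. The 60th percentile filter gave 1274 and 2140 of 10028 tested, and no filter gave 971 and 2251 of 22746. Among members, the lower calls were 1 with median centring, 1 with a pseudocount of 1, 1 with a pseudocount of 64 and 1 with the 60th percentile filter, under which nad2 was not tested. The higher calls were 0 with a pseudocount of 64 (limma; 5 at an unadjusted p under 0.05) and 1 without a filter, and with spike-in centring they were 7 higher and 0 lower. Leaving out 1 array gave between 2 and 4 higher and between 1 and 2 lower calls. With a pseudocount of 64, nad1 257322_at (0.52, limma adjusted p = 0.0607), 257324_at (0.86, 0.0594) and 257325_at (0.80, 0.0569) missed the threshold. So did nad9 (0.51, 0.0789) and nad2 (-0.39, 0.0516). Without a filter nad1 257324_at (limma adjusted p = 0.0701), nad1 257322_at (0.0765) and nad9 (0.0889) missed the threshold. With a pseudocount of 1, nad1 257322_at (limma adjusted p = 0.149), nad9 (0.0767) and nad4 (0.0544) missed it. With spike-in centring, nad1 257329_at turned to 0.70 and nad2 to 0.25. Counting only probe sets above the 40th percentile in both groups, an alternative chosen after seeing the data, left 1 member called lower. Within an array, a pseudocount of 1 turned the change of nad4 minus nad1 257329_at to 0.47, nad4 minus nad2 to 1.13, nad4L minus nad1 257322_at to 0.25, nad9 minus nad1 257323_at to -0.58 and nad1 257322_at minus 257323_at to -1.32. A pseudocount of 64 turned nad4L minus nad1 257321_at to -0.0035, nad9 minus nad1 257322_at to -0.016 and nad1 257324_at minus 257325_at to 0.062. For nad1 257321_at, leaving out 1 array gave values between -0.23 and 1.02. Beyond the spike-in centring and the smaller sets of arrays or probe sets, the cause of these moves was not tested. No detection calls were used, so signals under 16 carry no statement on presence.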

Other observations

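Nuclear factors that splice or stabilise nad transcripts were measured by 6 probe sets of 17 genes listed, of which 3 passed the filter on dim signals. None was called by limma, and 0 had an unadjusted p under 0.05. The maturase gene AT5G46920 had 31.1 ± 23.7 in exudate and 40.9 ± 8.72 in LMPC phloem (SD, n = 3 each; -0.39, limma adjusted p = 0.451). AT5G04050, a further maturase gene, had 9.07 ± 4.66 in exudate and 16.99 ± 1.54 in LMPC phloem (-0.41, limma adjusted p = 0.337). OTP43 (AT1G74900), which is needed for trans-splicing of nad1 in Arabidopsis, had 8.93 ± 4.04 in exudate and 3.98 ± 1.11 in LMPC phloem and failed the filter. Of 12 reference genes listed for scaling, 4 had a probe set, of which limma called 1 higher and 1 lower in exudate. GAPC2 had 873 ± 279.8 in exudate and 246 ± 60.1 in LMPC phloem (SD, n = 3 each; 1.74, limma adjusted p = 0.000694), and PEX4 19.9 ± 25.3 in exudate and 103 ± 54.3 in LMPC phloem (-1.84, limma adjusted p = 0.00352).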
